A study of Sus scrofa with 12 samples.

Results

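The insulin-like growth factor (IGF) genes examined here were the ligands IGF1 and IGF2, the receptors IGF1R and IGF2R, and the binding proteins IGFBP2, IGFBP3, IGFBP4 and IGFBP5. Every array probe whose platform gene symbol was one of these 8 was taken, which gave 10 probes of 6 genes, among 43769 tested probes that named 11908 genes. IGF1 had 3 probes, IGF2R and IGFBP3 had 2 each, and IGF1R, IGFBP4 and IGFBP5 had 1 each. IGF2 and IGFBP2 were matched by neither symbol nor RefSeq accession and were not analysed here.

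IGF1 and IGF2 are secreted growth factors that act through IGF1R, a tyrosine kinase receptor that signals through the PI3K and AKT pathway and through RAS and the MAP kinases. IGF2R, also called the cation-independent mannose 6-phosphate receptor, takes up IGF2 for breakdown in lysosomes, and the binding proteins hold IGFs in extracellular fluid and so limit or prolong their access to receptors. In the pig the uterus secretes IGF1 around the time when the conceptus elongates, and IGF supply is one of the maternal signals studied in early pregnancy.

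The embryos came from primiparous sows (after a first litter) in which oestrus had been stimulated during lactation, by intermittent suckling according to the study's title. FE sows were inseminated at the lactational oestrus, and SE (Skip-a-Heat) sows also came into heat in lactation but were inseminated at the next oestrus. The study compared the 2 mating strategies. All embryos were recovered 9 days after ovulation, from 3 sows per group, and sexed by PCR, and pools of 5 male or 5 female embryos of individual sows were made. Breed and age of the sows were not in the labels. Amplified RNA of FE and SE pools of the same sex was compared on 12 two-colour Agilent arrays in 6 sets, 3 male and 3 female, each hybridised on a first array and again with dyes swapped. Male and female pools were never on 1 array.

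Each value is a log2 ratio of FE and SE embryos for 1 set, averaged over its first array and its swap array with the sign turned. As deposited, first and swap arrays of a set correlated negatively over all probes, from r = -0.15 in male set 1 to -0.77 in female set 3, which is why the swap arrays were turned. In the labels FE is paired with Cy3 and SE with Cy5 throughout, swap arrays included, so which group is the numerator is not settled. A positive ratio therefore has only the sign of the first arrays, no ratio below says whether FE or SE embryos were higher, and with the other numerator all signs turn together. A ratio gives no level, so the presence of embryonic markers in the pools could not be checked, and fewer cells of a type cannot be told apart from less RNA per cell. The small number of arrays and sets limits the precision. The labels do not say which sow gave which set, and by the labels' protocol the same sows gave male and female pools, so the 6 sets are not shown to be independent and p-values measure the spread between these pools.

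None of the 10 IGF probes differed between FE and SE embryos beyond the spread between sets. Over both sexes the mean ratios lay between -0.16 for IGFBP5 and 0.19 for one of the IGF2R probes. In limma's fit 0 of 10 passed an adjusted p of 0.05, against 0.00457% of all probes (2 of 43769). At an unadjusted p under 0.05 there were also 0 of 10, against 5.92% of all probes. The median ratio of the 10 was 0.0089, beside -0.0044 over all probes, and the median size of the ratio was 0.084, beside 0.061. None of the 10 had 1 sign in all 6 sets, against 4.14% of all probes.

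**Figure D1:**
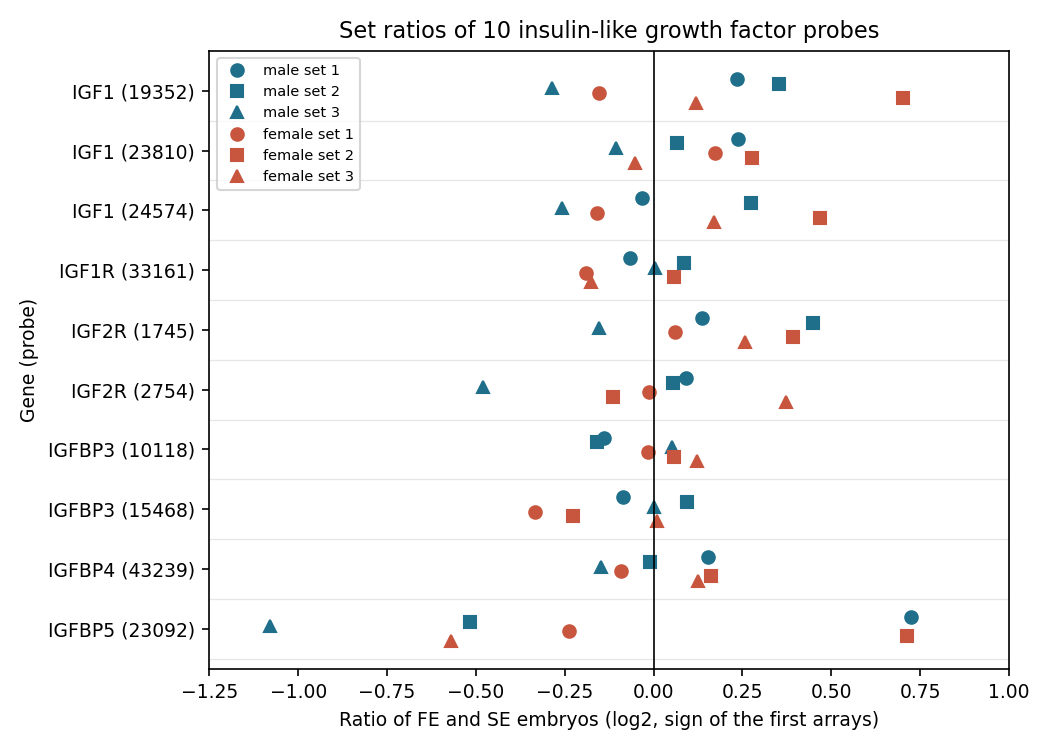
Log2 ratio of FE and SE embryos (horizontal axis, sign of the first arrays) for the 10 IGF probes (rows, with array probe number), 1 symbol per set, male in blue and female in red. The points of every probe lie on both sides of 0, and those of IGFBP5 spread from -1.08 to 0.72.

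Among the ligands, IGF1 had set ratios on both sides of 0 at each of its 3 probes. At probe 19352 the male sets 1, 2 and 3 had ratios of 0.24, 0.35 and -0.28, and the female sets 1, 2 and 3 had -0.15, 0.70 and 0.12. Female set 2 was highest and male set 3 lowest, and the ranges of the sexes overlapped. The mean was 0.16 ± 0.36 (SD, n = 6 sets), with a 95% confidence interval of -0.17 to 0.49 and an adjusted p of 0.948 (limma). Probe 24574 had -0.033, 0.28 and -0.26 in male sets 1, 2 and 3 and -0.16, 0.47 and 0.17 in female sets 1, 2 and 3, with a mean of 0.077 ± 0.28 (SD, n = 6). Its highest and lowest sets were again female set 2 and male set 3. Probe 23810 had 0.24, 0.066 and -0.10 in male sets 1, 2 and 3 and 0.17, 0.28 and -0.053 in female sets 1, 2 and 3. It varied less than the other IGF1 probes, and its mean was 0.099 ± 0.16 (SD, n = 6). Averaged over the 3 probes, the IGF1 ratio was 0.11 ± 0.24 (SD, n = 6), with an interval of -0.12 to 0.34.

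IGF1R, the receptor that carries the growth signal, had ratios close to 0 in all sets. Its male sets had -0.066, 0.086 and 0.0051, and its female sets had -0.19, 0.058 and -0.18. The sets lay within 0.28 of each other, and the mean of -0.047 ± 0.12 (SD, n = 6) had an interval of -0.19 to 0.094 (adjusted p = 0.964, limma).

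IGF2R had the member probe of smallest p in the comparison of FE and SE embryos. At probe 1745 the male sets had 0.14, 0.45 and -0.15, and the female sets had 0.061, 0.39 and 0.26. Male set 3 was the only negative set of the 6. The mean was 0.19 ± 0.22 (SD, n = 6) and the interval, -0.030 to 0.41, included 0, with an adjusted p of 0.890 (limma). The second probe, 2754, had 0.091, 0.054 and -0.48 in male sets 1, 2 and 3 and -0.013, -0.11 and 0.37 in female sets 1, 2 and 3. Here the sets of slide 3 were the extremes, male set 3 lowest and female set 3 highest, and the mean was -0.015 ± 0.28 (SD, n = 6). The mean over both IGF2R probes was 0.088 ± 0.22 (SD, n = 6).

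The binding proteins differed in how far their sets spread. IGFBP3, the main carrier of IGFs in blood, had set ratios from -0.16 to 0.12 at probe 10118, with a mean of -0.014 ± 0.11 (SD, n = 6). At its other probe, 15468, they ran from -0.33 in female set 1 to 0.093 in male set 2, with a mean of -0.090 ± 0.16 (SD, n = 6). That probe's first arrays averaged -0.30 and its turned swap arrays 0.12, and the 2 arrays had the same sign in 2 of 6 sets. IGFBP4, which limits IGF action and is cut by the protease PAPPA, ran from -0.15 in male set 3 to 0.16 in female set 2. Its mean was 0.032 ± 0.13 (SD, n = 6), and its arrays also had the same sign in 2 of 6 sets.

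IGFBP5, a binding protein of tissues and extracellular matrix, spread most of the 10 probes. The male sets 1, 2 and 3 had ratios of 0.72, -0.52 and -1.08, and the female sets 1, 2 and 3 had -0.24, 0.71 and -0.57. Male set 1 and female set 2 were high, the other 4 sets were negative, and the sexes overlapped fully. The mean of -0.16 ± 0.73 (SD, n = 6) had an interval of -0.80 to 0.48 (adjusted p = 0.977, limma). Its sign rested on male set 3, without which the mean was 0.036, and on the array role. With all 6 sets the mean was 0.036 on first arrays alone and -0.36 on turned swap arrays alone. Without any 1 of the other 5 sets the mean over first and swap arrays stayed negative, from -0.41 (without male set 1) to -0.026 (without female set 3).

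**Figure D2:**
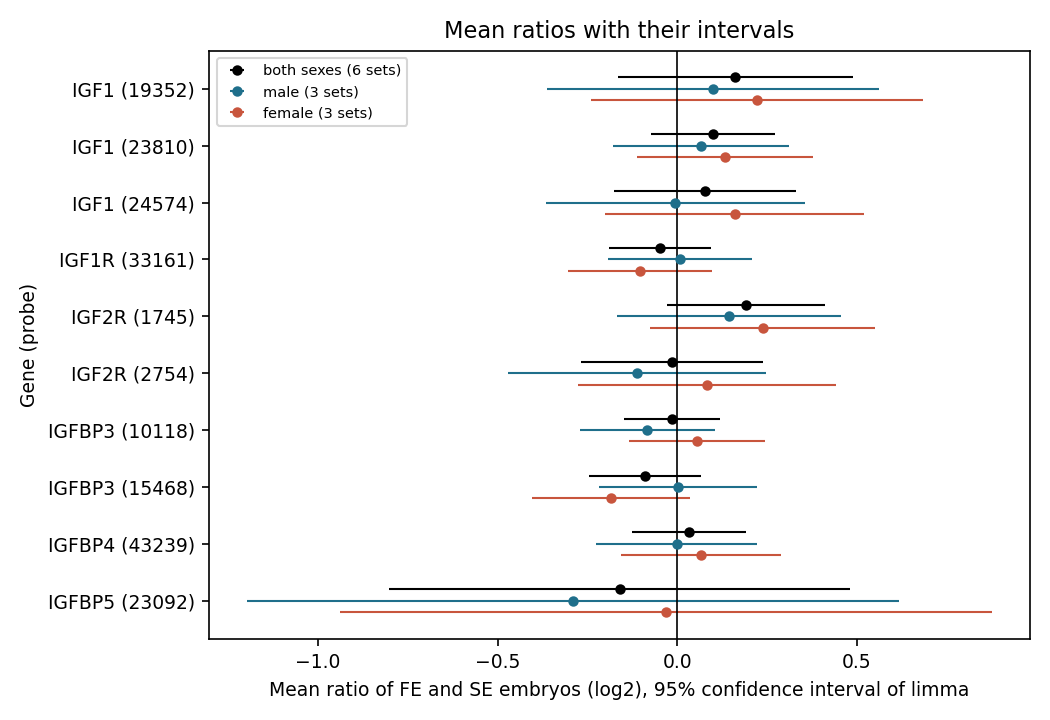
Mean log2 ratio of FE and SE embryos (points) with the 95% confidence interval of limma (bars) for the 10 IGF probes, over both sexes (6 sets, black), male sets (3, blue) and female sets (3, red). All intervals include 0, and those of IGFBP5 are widest, from -0.80 to 0.48 over both sexes.

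The intervals give the mean ratios that limma's fit leaves possible, taking the 6 sets as independent, which is not shown. They hold for the ratios as the arrays read them. A ratio gives no level, so whether a narrow interval goes with a weak signal was not tested. For 9 of the 10 probes the whole interval over both sexes lay within a 1.5-fold change in either direction, a share near that of all probes, 86.2%. IGFBP5 was the exception.

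Within each sex the IGF probes gave no call either. In the male sets 0 of 10 passed the adjusted threshold and 0 passed at an unadjusted p under 0.05, where all probes gave 0% and 3.24%. In the female sets the counts were again 0 and 0, where all probes gave 0% and 4.81%. The smallest adjusted p of a member was 0.99977 for male and 0.99941 for female sets (limma). The IGFBP5 ratio averaged -0.29 in the male and -0.031 in the female sets.

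The difference between the male and the female ratio was tested directly, and 0 of 10 IGF probes passed at the adjusted threshold (all probes 0%) or at an unadjusted p under 0.05 (all probes 1.87%). The male minus female difference was largest in size for IGFBP5, at -0.26 with an interval of -1.54 to 1.02. For IGF2R probe 2754 it was -0.19, with an interval of -0.70 to 0.31, and for IGFBP3 probe 15468 it was 0.19, with an interval of -0.13 to 0.50. None of the 10 had all male sets on one side of 0 and all female sets on the other, against 1.86% of all probes.

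Some of the IGF probes varied between the sets, at a share near that of all probes. A moderated F test in limma compared the 6 set ratios with each other against the gap between the 2 arrays of a set, and 4 of 10 IGF probes passed (adjusted p under 0.05), beside 37.7% of all probes and 43.2% of the probes that name a gene. They were IGFBP5, 2 of the 3 IGF1 probes and 1 of the 2 IGF2R probes, while IGF1R, IGFBP3 and IGFBP4 did not pass. This test compares pairs of pools and slides, not FE with SE embryos.

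IGFBP5 had the largest F of the members, 55.2, with an adjusted p of 1.79e-06 (limma). The standard error of a set ratio was 0.099, while male set 1 and male set 3 differed by 1.80, or 3.49-fold. The first arrays of the male sets 1, 2 and 3 read 0.95, -0.41 and -0.92, and their turned swap arrays 0.50, -0.62 and -1.23. In the female sets 1, 2 and 3 the first arrays read -0.056, 1.04 and -0.38, and the turned swap arrays -0.42, 0.39 and -0.76. The 2 arrays thus had the same sign in 6 of 6 sets. The SD over the 6 sets stood at the 96.1th percentile of all probes, and the adjusted p stayed past the threshold in 13 of 13 alternatives with turned swap arrays.

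**Figure D3:**
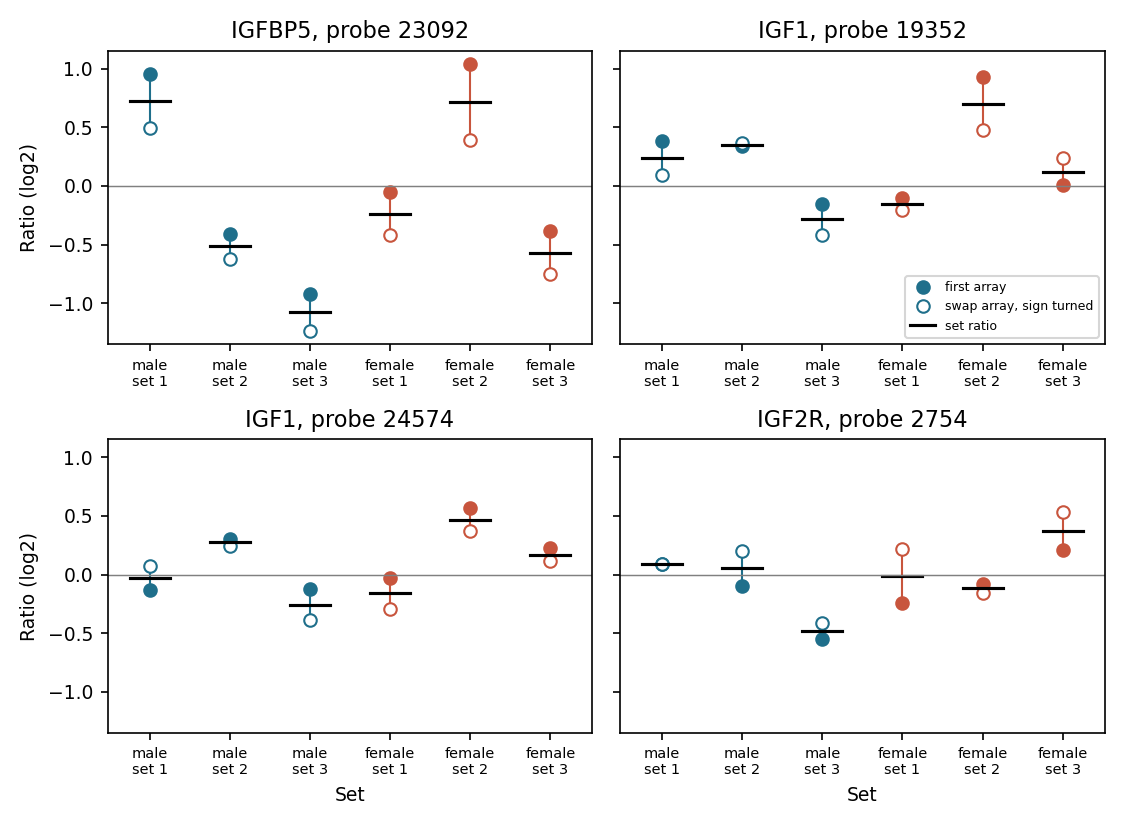
Log2 ratio (vertical axis, sign of the first arrays) in each set for the 4 IGF probes that differed between sets. Filled circles are first arrays, open circles sign-turned swap arrays and black bars set ratios, and both arrays of IGFBP5 lie on the same side of 0 in 6 of 6 sets.

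IGF1 probe 19352 ranged over 0.99 between female set 2 and male set 3, a 1.98-fold difference (F = 9.32, adjusted p = 0.00283, limma), and its 2 arrays had the same sign in 6 of 6 sets. It also stayed past the threshold in 13 of 13 alternatives with turned swap arrays. IGF1 probe 24574 ranged over 0.73 between the same sets, 1.65-fold (F = 7.16, adjusted p = 0.00798, limma). Its call was lost without female set 2 (adjusted p = 0.0573), without the arrays of slide 3 (0.0602) and without a term for array role (0.0600). The third IGF1 probe, 23810, did not pass (adjusted p = 0.240, limma).

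IGF2R probe 2754 ranged over 0.85 between female set 3 and male set 3, a 1.81-fold difference (F = 6.67, adjusted p = 0.0104, limma). Both of those sets were on slide 3, and the adjusted p was 0.210 without male set 3, 0.0785 without female set 3, 0.786 without slide 3 and 0.109 without a term for array role. IGF2R probe 1745 did not pass with all sets (adjusted p = 0.0915, limma) and passed without male set 1 (0.0221).

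**Figure D4:**
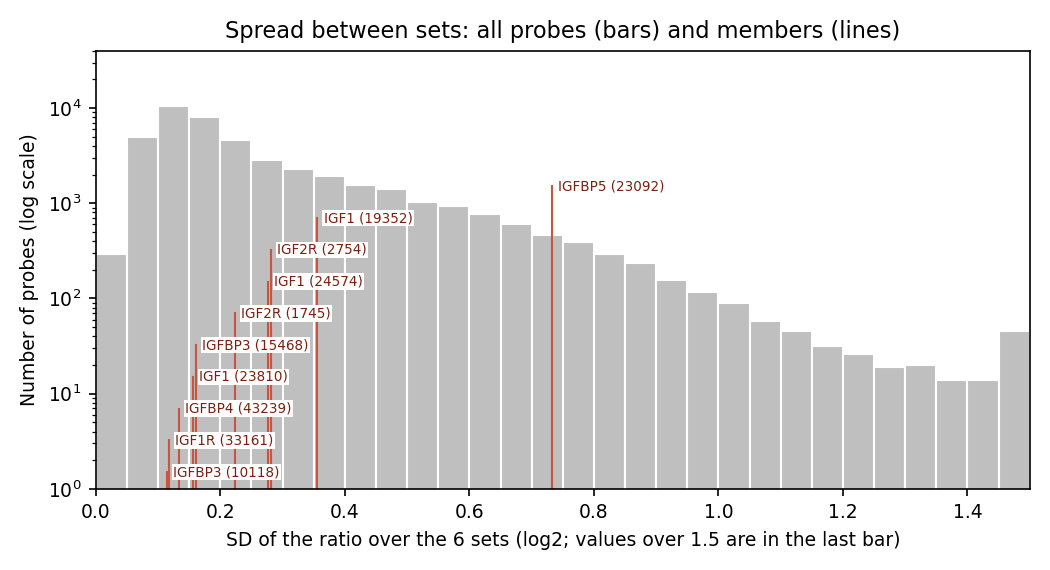
Number of probes (vertical axis, log scale) by the SD of their log2 ratio over the 6 sets (horizontal axis) for all 43769 probes, with the SD of the 10 IGF probes as red lines whose height carries no value. IGFBP5 stands alone at 0.73, and the other IGF probes lie between 0.11 and 0.36.

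Sets on 1 slide could be compared with each other free of any difference between slides. On slides 1 and 2 they had the same sex, and on slide 3 one was male and the other female. A moderated F test took the differences of the 3 slides together, so each adjusted p below belongs to all 3 differences of a probe. In this test 4 of 10 IGF probes passed, the probes named above, beside 31.6% of all probes. For IGFBP5, male set 1 minus male set 2 was 1.24 on slide 1, and female set 1 minus female set 2 was -0.95 on slide 2. Male set 3 minus female set 3 was -0.51 on slide 3 (SE of each difference 0.14, adjusted p of the 3 together = 1.42e-05, limma). The same differences for IGF1 probe 19352 were -0.12, -0.85 and -0.40 (SE 0.16, adjusted p = 0.00397, limma), so the female sets of slide 2 stood furthest apart. For IGF1 probe 24574 they were -0.31, -0.63 and -0.43 (SE 0.15, adjusted p = 0.00489, limma). For IGF2R probe 2754 they were 0.038, 0.10 and -0.85 (SE 0.15, adjusted p = 0.00499, limma), so that its difference lay on slide 3.

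Probes of the same gene did not always vary alike over the 6 sets. IGF1 probes 19352 and 24574 had a Pearson r of 0.94, whereas probe 23810 had 0.63 with the first and 0.39 with the second. The IGF2R probes had 0.57 and the IGFBP3 probes -0.19. Between genes, IGF1 probe 23810 had 0.93 with IGFBP5, and IGF2R probe 1745 had 0.94 with IGF1 probe 24574. These coefficients describe 6 sets that share slides and sows. Neither IGF1 probe 23810 nor IGF2R probe 1745, nor any probe of IGFBP3, IGFBP4 or IGF1R, passed the test between sets.

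Among 7817 named probes that also differed between sets, those whose 6 ratios were most like IGFBP5 were ACTR3B, an actin-related protein (r = 0.98), and IL1B2, the interleukin-1 beta form that pig conceptuses secrete around elongation (r = 0.97). IL1B2 had 2.58, -0.26 and -2.51 in male sets 1, 2 and 3 and -0.19, 2.64 and -2.18 in female sets 1, 2 and 3. Its extremes were the sets that were high or low for IGFBP5, on a wider scale. IGF1 probe 19352 was most like DUSP1, a phosphatase that inactivates MAP kinases, and STAR, which moves cholesterol into mitochondria for steroid synthesis (r = 0.995 and 0.993). DUSP1 had 0.27, 0.41 and -1.49 in male sets 1, 2 and 3 and -0.95, 1.37 and -0.20 in female sets 1, 2 and 3. IGF1 probe 24574 was most like GNAI2, an inhibitory G protein subunit, and MIPEP, a mitochondrial peptidase (r = 0.99 and 0.98). IGF2R probe 2754 was most like GTF3C5, a subunit of a transcription factor of RNA polymerase III, and RNF25, a ubiquitin ligase (r = 0.99 for both). The highest of 7817 coefficients over 6 points are high by selection, and no test was made of them.

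**Figure D5:**
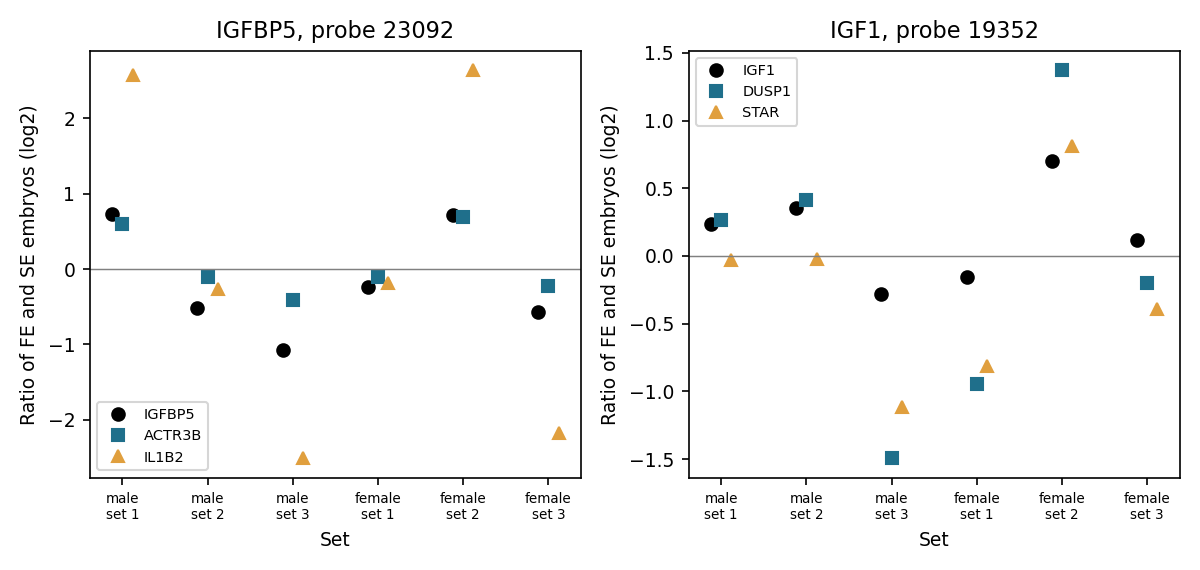
Log2 ratio of FE and SE embryos (vertical axes, sign of the first arrays, scales differ between panels) in each set for IGFBP5 and IGF1 probe 19352 (black circles) and the 2 genes most like each (blue squares and orange triangles). IL1B2 follows the order of IGFBP5 closely and reaches 2.64 in female set 2 and -2.51 in male set 3.

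Markers of embryonic cell layers varied over the same sets. Of 26 probes of 13 trophectoderm genes, 20 differed between sets, beside 43.2% of all named probes. The list mean stood at 0.23, 0.15 and -0.58 for male sets 1, 2 and 3 and at 0.24, 0.48 and -0.28 for female sets 1, 2 and 3. This mean was highest in female set 2 and lowest in male set 3, as for the 3 IGF1 probes, but the listed genes did not all vary alike. Probes of KRT8, KRT18, KRT19 and IL1B2 were low in male set 3, from -2.55 (KRT19) to -1.60 (KRT8). TFAP2C had -0.51 and -0.75 in female set 2 and 1.55 at each probe in female set 3. GATA2 was lowest in female set 2 (-0.55), and DAB2 probes 7115 and 12486 were highest in female set 1 (1.94 and 1.45). DAB2 probes 3545 and 24666 were highest in female set 2 (0.52 and 1.19), as was the list mean. The epiblast list (7 of 12 probes differed) ran from -0.38 in male set 3 to 0.36 in female set 2, and the hypoblast list (5 of 11) from -0.17 to 0.37 in the same sets. In male set 3 the low epiblast mean came from the DPPA5 probes (-2.48 and -2.46), while SOX2 had 0.33 and DNMT3B probe 38789 had 0.37. The low hypoblast mean there came from APOA1 (-1.30) and RBP4 (-1.32), while APOC3 had 0.63 and GATA6 had 0.41. The list mean of uterine markers (1 of 9 probes differed, WNT7A) ran from -0.17 to 0.086, and that of blood markers (0 of 8) from -0.016 to 0.066. Both means were lowest in male set 3 and highest in female set 2. Single probes ranged further. WNT7A ran from -0.83 in female set 3 to 0.55 in female set 2, and ALAS2 probe 23045 from -0.26 in male set 3 to 0.41 in female set 2. The part of these markers in the IGF results was not tested.

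The other genes of the IGF pathway gave no call between FE and SE embryos. Of 96 listed genes 71 were measured with 113 probes, and 0 passed in either direction over both sexes, in the male or female sets, or in the difference of the sexes (adjusted p under 0.05, limma). At an unadjusted p under 0.05 over both sexes there were 3 of 113, against 5.92% of all probes. GRB14, an adaptor that dampens insulin receptor signalling, had a mean of 0.35 ± 0.21 (SD, n = 6) at 1 of its 5 probes, positive in 6 of 6 sets (adjusted p = 0.754). Its other 4 probes had means between 0.033 and 0.093. NRAS, a RAS GTPase, had -0.49 ± 0.41 (SD, n = 6), negative in 5 of 6 sets (adjusted p = 0.768), and TIMP2, an inhibitor of matrix metalloproteinases, had -0.43 ± 0.35 (SD, n = 6), also negative in 5 of 6 (adjusted p = 0.791). None of the 3 passed the adjustment.

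Between sets 51 of the 113 pathway probes differed, 45.1% beside 43.2% of all named probes. Of the remaining binding proteins, 2 of 9 probes differed, both of IGFBP7, and IGFBP1, the neighbour of IGFBP3 in the pig RefSeq annotation (Sscrofa11.1), did not (adjusted p = 0.117, limma). Proteases that cut binding proteins, with their inhibitors, had 4 of 16 probes, of MMP2, PAPPA, TIMP2 and TIMP3. The insulin receptors INSR and INSRR had 0 of 3 probes, and IDE, the insulin-degrading enzyme on the same list, had 1 of 1. Receptor substrates and adaptors had 6 of 19. The PI3K, AKT and mTOR list had 14 of 38 and the RAS and MAP kinase list 11 of 12. IGF mRNA-binding proteins and regulators of IGF2 had 13 of 15, of which 7 were probes of M6PR, the smaller mannose 6-phosphate receptor, so these counts hold repeated genes.

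The pathway genes with the largest F between sets were GRB2, RHEB, PTPN11, M6PR, ARAF and PDPK1. GRB2, the adaptor that links receptors to RAS, had -0.25, -0.15 and -0.32 in male sets 1, 2 and 3 and 0.99, -1.32 and 1.52 in female sets 1, 2 and 3 (F = 58.3). The female sets spread furthest and female set 2, high for IGF1 and IGFBP5, was the lowest. RHEB, a GTPase that activates mTORC1, had F = 55.5 at probe 23101, from -1.06 in female set 3 to 0.60 in male set 2. Its probes 26876 and 27645 were lowest in male set 1, at -0.37 and -0.57, and had -0.29 and -0.21 in female set 3. PTPN11, a phosphatase needed for full RAS signalling, ran from -0.88 in male set 2 to 1.14 in female set 1 (F = 48.7). M6PR, which like IGF2R carries lysosomal enzymes, had F = 43.3 at probe 994, from -1.22 in female set 3 to 0.33 in male set 2. Its other 6 probes were highest in female set 1, at 0.90 to 1.15, where probe 994 had 0.11. ARAF, a kinase below RAS, ran from -0.42 in female set 3 to 1.19 in female set 2 (F = 41.9). PDPK1, which activates AKT, ran from -0.63 in female set 2 to 0.95 in female set 1 (F = 37.9). The set that was extreme differed from gene to gene.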

How the data were processed

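The deposited values, read as log2 ratios, were made by the authors from two-colour arrays hybridised with amplified, ULS-labelled RNA (per the labels' protocols). The log2 scale was taken from their range, -4.99 to 5.97. The sources used here do not give log base, background correction, normalization or numerator. Array medians lay within 0.011 of 0. Of 43794 deposited probes 25 with a missing value were left out. Platform symbols, 354 of them updated through RefSeq, named 18110 probes of 11908 genes.

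Swap arrays were sign-turned (correlation of first and swap deviations -0.73) and averaged with first arrays. A limma 3.58.1 fit (R 4.3.3) of the set ratios had 1 mean per sex; sets were compared by moderated F over 12 arrays with a term for array role. P-values were adjusted by Benjamini-Hochberg across the 43769 probes and called under 0.05. The fits were also run on simulated data with independent noise in each set and array. That run does not cover sets that share slides and sows, and no result above rests on it. Alternatives changed the arrays, centring, scaling, probes, variance prior, slide and sets.

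Members, gene lists and tests were chosen with earlier results of these data known. Named besides members were pathway genes with an unadjusted p under 0.05 over both sexes or the 6 largest F, and for each member probe that differed between sets the 2 most correlated genes. MMP2, PAPPA, TIMP3, IGFBP1 and IGFBP7 were named after their values were seen.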

Additional observations from a re-analysis of the deposited data

How the results depend on the processing

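With swap arrays turned, 0 IGF probes passed between FE and SE embryos in any of 68 alternative counts, over both sexes, per sex or for the difference of the sexes. Of all probes these alternatives called from 0% to 0.74% at the adjusted threshold, and from 1.87% to 5.92% at an unadjusted p under 0.05. With shares this low, 0 of 10 says little about the IGF probes. Without turning the swap arrays, a difference between FE and SE embryos cancels in the mean of a set, while any constant dye effect stays. Calls in that setting therefore do not compare FE with SE embryos. There 2 IGF probes passed over both sexes, IGFBP3 probe 15468 at -0.21 (adjusted p = 0.00337, limma) and IGFBP5 at 0.20 (adjusted p = 0.00396, limma). In the male sets 1 passed (IGFBP3 probe 15468) and in the female sets 1 (IGFBP5). The same setting called 37.3%, 19.8% and 15.6% of all probes. It called 0 IGF probes and 0% of all probes between sets. Between sets 2 IGF probes passed without a term for array role (21.9% of all probes) and 2 with slide 3 left out (16.9%), an alternative chosen after seeing the data, as was the comparison within slides; the former leaves the constant gap between arrays in the error and the latter has fewer arrays. With the 12 arrays as separate values 323 probes (0.74% of all) were called over both sexes, and 0 were IGF probes. The mean ratio of IGFBP3 was -0.17 on first arrays alone and 0.061 on swap arrays alone, and that of IGFBP5 was 0.036 and -0.36. Over the alternatives with turned swap arrays the IGFBP5 mean ranged from -0.41 (without male set 1) to 0.036 (first arrays alone, or without male set 3). Whether set numbers pair the sexes is unknown, as the labels do not say. The deviations of same-numbered male and female sets correlated at 0.047, 0.41 and 0.26 for sets 1, 2 and 3. Only male set 3 and female set 3 shared a slide, and no values of differently numbered sets are given, so these correlations cannot show pairing. With the set number as a replicate block (correlation 0.12), 0 IGF probes and 0% of all probes passed between FE and SE embryos.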
